A study of Mus musculus with 12 samples.

Results

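Ucn3, Iapp, Npy, Vgf and Nucb2 were taken as secreted peptide genes of pancreatic beta cells other than insulin, by their gene names in the deposited table. They are 5 of the 34820 genes listed, and all 5 were among the 20180 genes with enough counts to be tested. The libraries were bulk RNA-seq of isolated islets of Langerhans from C57/Bl6 mice that carried the tamoxifen-inducible Cre recombinase Ins1::Cre-ERT2, which the insulin 1 promoter drives in beta cells. All animals received tamoxifen on 3 days when 11 to 13 weeks old, and islets of 2 mice were pooled for a replicate and cultured before extraction. In Taf4 mutant islets (Taf4 lox/lox) the injections inactivated Taf4, and islets were taken 1 week (3 libraries), 3 weeks (3 libraries) or 5 weeks later (2 libraries, replicates 2 and 3, with replicate 1 not analysed here). Wild-type islets (Taf4+/+, 3 libraries) came from animals with the same Cre and tamoxifen, and their time after injection is not given in the labels. Taf4 is a subunit of the general transcription factor TFIID.

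The 5 genes encode peptides that islets release beside insulin. UCN3 (urocortin 3) appears as mouse beta cells mature and acts through the CRF receptor CRHR2 on delta cells, which answer with somatostatin. IAPP (islet amyloid polypeptide, amylin) is stored and released with insulin, and NPY (neuropeptide Y), known from immature beta cells and sympathetic nerves, slows insulin release through NPY1R. VGF is a granin-like protein cut into several peptides and needed for dense core granules, and NUCB2 (nucleobindin 2) is a calcium-binding protein from which nesfatin-1 is made.

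Promoter windows from RefSeq (GRCm38.p6, 250 bases before to 50 after the annotated start) were found for 4 members, Ucn3, Iapp, Npy and Nucb2. They are shown for 2 genes that were lower in mutant islets, Ucn3 and Nucb2, and for Iapp, which was not called at any time, because Taf4 belongs to the complex that binds core promoters. Each runs 5′ to 3′ along its gene. Capitals mark matches, on either strand, to the TATA box core TATAA, the CCAAT box, the homeodomain core TAAT and the E box CATCTG, while the GC box GGGCGG, also searched, had no match in these 3.
Ucn3 (chr13:3945300-3945599, minus strand): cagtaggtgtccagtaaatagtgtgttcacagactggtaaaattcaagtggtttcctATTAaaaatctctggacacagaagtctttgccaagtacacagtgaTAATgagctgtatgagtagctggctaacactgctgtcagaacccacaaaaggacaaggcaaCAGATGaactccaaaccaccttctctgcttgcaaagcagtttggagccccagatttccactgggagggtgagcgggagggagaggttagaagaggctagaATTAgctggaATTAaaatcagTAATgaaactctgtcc
Nucb2 (chr7:116504119-116504418, plus strand): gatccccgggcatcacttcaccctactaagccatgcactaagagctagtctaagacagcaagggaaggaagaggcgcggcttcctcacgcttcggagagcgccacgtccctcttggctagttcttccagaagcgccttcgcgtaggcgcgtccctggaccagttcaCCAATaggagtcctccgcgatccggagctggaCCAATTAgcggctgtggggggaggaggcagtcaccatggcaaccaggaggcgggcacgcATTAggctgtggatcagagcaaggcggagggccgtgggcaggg
Iapp (chr6:142298175-142298474, plus strand): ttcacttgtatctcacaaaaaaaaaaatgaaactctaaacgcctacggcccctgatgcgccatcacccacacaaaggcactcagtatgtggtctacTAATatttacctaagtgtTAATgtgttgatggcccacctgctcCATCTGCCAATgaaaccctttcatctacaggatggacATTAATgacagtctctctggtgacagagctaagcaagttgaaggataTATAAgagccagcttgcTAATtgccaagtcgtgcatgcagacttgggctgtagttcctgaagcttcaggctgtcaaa

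Of these 3 windows, that of Iapp alone held TATAA, which began 27 bases before the start. On the gene's strand, within 20 to 40 bases before the start, the motif stood in 3.52% of 32851 windows. Iapp also held CATCTG at 111 and CCAAT at 105 bases before the start, next to each other, and 5 TAAT cores, 2 of which overlap. Ucn3 held 5 TAAT cores, CATCTG on the other strand at 87 bases before the start, and neither TATAA nor CCAAT. Nucb2 held CCAAT at 84 and 52 bases before the start and 2 TAAT cores, one of them overlapping CCAAT. The window of Npy, not shown, held CCAAT and GGGCGG and also lacked TATAA. Npy was called higher at 1 week and was not called at 3 or 5 weeks. On either strand, TATAA was found in 24.9% of all windows, CCAAT in 37.4%, TAAT in 58.0%, CATCTG in 17.2% and GGGCGG in 35.7%, so such matches are common and describe letters alone.

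The libraries held 13865518 to 21581153 counts. Taf4 itself (Taf4a in the table), counted over the whole gene and so over exons that deletion leaves, stood at 21.7 to 37.0 CPM (a count set against its library's TMM-scaled total) in mutant and 23.0 to 29.8 CPM in wild-type islets, which does not check the labels. Transcripts of 24 acinar cell markers took 6.59 to 22.9% of counts at 1 week, 3.19 to 4.43% at 3 weeks and 0.0309 to 0.216% at 5 weeks, against 27.0 to 48.7% in the wild type. Xist, expressed from the inactive X of females, held 1592 to 2050 CPM in mutant libraries against 8.68 to 36.3 CPM in the wild type, and 4 Y-linked genes were at or near 0 counts in the mutants, so sex and genotype cannot be told apart here. Defining markers of all 4 endocrine cell types were present in every group. Of 9 beta cell markers, 7, 7 and 8 were lower at 1, 3 and 5 weeks, while Ins2 was higher at 1 and 3 weeks, and on total counts 2, 4 and 6 were still lower. Of 6 alpha cell markers tested, 5, 2 and 1 were higher, with no marker lower. In bulk islets, fewer cells of a type and less RNA per cell cannot be told apart.

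Tests used edgeR, with a gene called where its p, adjusted over all 20180 genes, was below 0.05. Values after ± are standard errors of a log2 fold change, and n is 3 libraries per group and 2 at 5 weeks. Of all genes tested, 9.76% were called at 1 week (5.34% higher, 4.42% lower), 16% at 3 weeks (8.24% higher, 7.76% lower) and 29.1% at 5 weeks (15% higher, 14.1% lower). Of the 5 members, 2 were higher and 2 lower at 1 week, and 1 was higher and 2 lower at 3 weeks and again at 5 weeks. Ucn3 and Nucb2 were the lower ones each time, Vgf was higher each time and Npy was higher at 1 week. The 3 comparisons share their wild-type libraries. Scaling on total counts alone, named below where it ended a call, raised the median log2 fold change of all genes by 0.19, 0.66 and 0.99 at 1, 3 and 5 weeks, and scaling on 12 genes that all endocrine cells express moved it by -0.23, -0.27 and 0.57. On total counts 1057, 7176 and 9963 of all genes were called higher and 417, 514 and 894 lower. With endocrine scaling 399, 411 and 7821 were higher and 1727, 2750 and 1470 lower. List counts under these scalings are to be read beside these numbers. The 12 genes include Chga and Scg2, themselves lower at 5 weeks with TMM scaling.

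**Figure D1:**
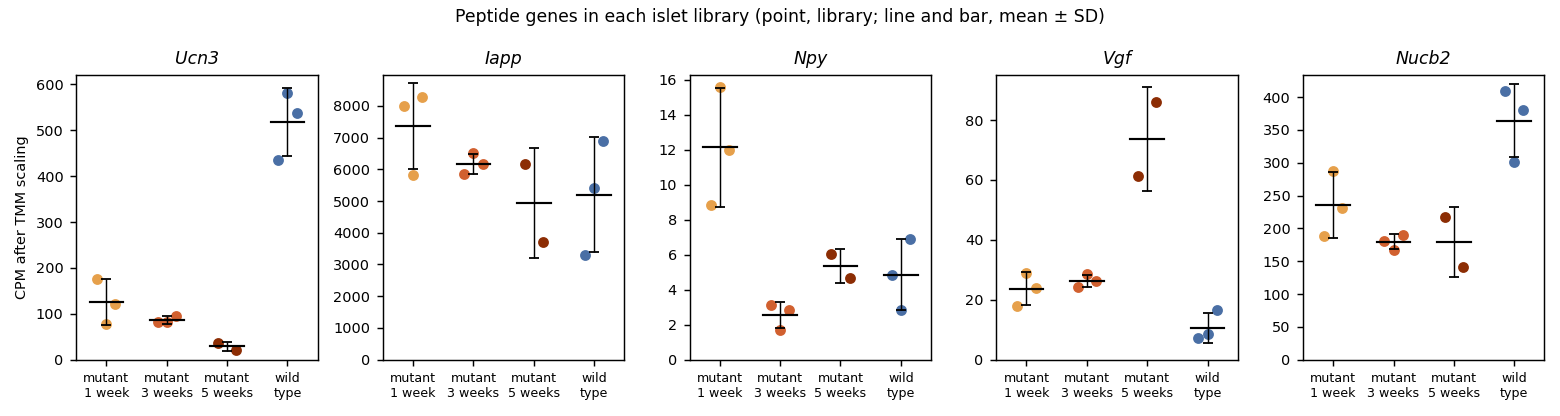
CPM after TMM scaling (y axis, from 0) of Ucn3, Iapp, Npy, Vgf and Nucb2 in each library (points), with the mean and SD of each group (lines and bars), for Taf4 mutant islets at 1, 3 and 5 weeks and wild-type islets (x axis). Ucn3 and Nucb2 lie below and Vgf lies above all wild-type libraries at every time, while the groups overlap for Iapp.

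Ucn3 (ENSMUSG00000044988, chromosome 13 from 3939934 to 3944595, minus strand, NCBIM37) fell at each time. Its level was 177, 77.2 and 122 CPM at 1 week, 81.7, 81.5 and 96.1 CPM at 3 weeks and 36.0 and 22.2 CPM at 5 weeks, against 435, 581 and 538 CPM in the wild type. No mutant library reached the lowest wild-type level, and the 5-week libraries lay below all others. The log2 fold change was -2.05 ± 0.24 at 1 week (edgeR adjusted p = 4.6e-05), a 4.14-fold lower level. At 3 weeks it was -2.58 ± 0.24 (2.1e-06), 6.00-fold lower, and -4.16 ± 0.31 at 5 weeks (3.4e-08), 17.9-fold lower. These calls held under every alternative scaling, filter and left-out library.

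Between mutant times, 1 member was lower at 3 weeks than at 1 week, where 3.82% of all genes were called (0.942% higher, 2.87% lower). At 5 weeks against 1 week, 1 member was higher and 2 were lower, beside 16.4% of all genes (7.68% higher, 8.76% lower). For 5 weeks against 3 weeks, 2 members were higher and 1 was lower, beside 11.8% (6.07% higher, 5.71% lower). Ucn3 was lower at 5 weeks than at 1 week (-2.11 ± 0.28, edgeR adjusted p = 3.6e-05) and than at 3 weeks (-1.57 ± 0.27, edgeR adjusted p = 0.00077). The levels at 3 weeks and 1 week overlapped and did not pass the test (-0.54 ± 0.23, edgeR adjusted p = 0.22). Without 1-week replicate 2, the lowest of its group, that last difference was -0.80 and was called (edgeR adjusted p = 0.043). The order of the levels was thus wild type, then 1 and 3 weeks, then 5 weeks. That 1 and 3 weeks did not pass the test does not show that they were alike. With no timed wild type, time after inactivation and age cannot be told apart.

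Ucn3 was also set against Iapp in the same library, which needs no scaling between libraries. Per 1000 Iapp counts, 1-week libraries held 22.1, 13.3 and 14.7 Ucn3 counts, 3-week libraries 13.97, 12.5 and 15.6 and 5-week libraries 5.82 and 5.95, against 131.7, 107 and 78.0 in wild-type libraries. The 5-week libraries, which differed in CPM, were nearly alike in this ratio. Such a ratio shows unequal change of the pair and not which of them changed.

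**Figure D2:**
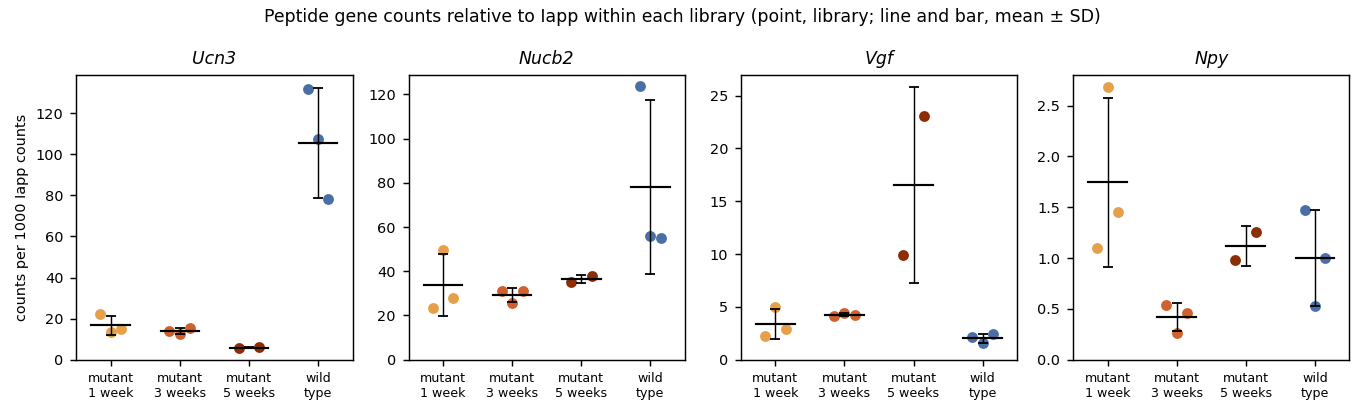
Counts of Ucn3, Nucb2, Vgf and Npy per 1000 Iapp counts in the same library (y axis, from 0; points, libraries; lines and bars, mean and SD) for Taf4 mutant islets at 1, 3 and 5 weeks and wild-type islets (x axis). Ucn3 and Nucb2 lie below the wild type in every mutant library, and the highest Vgf ratios, 9.94 and 23.1, are those of the 5-week libraries. For Vgf and for Npy, the 1-week and wild-type ratios overlap.

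The genes around UCN3 signalling are its relatives Ucn, Ucn2 and Crh, the receptors Crhr1 and Crhr2, and Crhbp, which binds CRF peptides. Of these 6, 3 had enough counts to be tested, and 1, 1 and 2 were lower at 1, 3 and 5 weeks with none higher. The median log2 fold changes of the 3 genes were -1.36, -0.99 and -2.82, beside medians over all genes of -0.04, -0.05 and -0.03. Crhr1, the CRF receptor that mouse beta cells use, held 0.803, 0.0642 and 0.0805 CPM at 1 week, 0.212, 0.689 and 0.0522 CPM at 3 weeks and 0.119 and 0.703 CPM at 5 weeks, against 2.99, 3.98 and 2.08 CPM in the wild type. It was lower at each time (-3.18 ± 0.86, -3.18 ± 0.82 and -2.82 ± 0.92, edgeR adjusted p = 0.025, 0.013 and 0.028), on 1 to 24 counts per mutant library. Crhr2, the receptor of UCN3 on delta cells, was not called (0.28 ± 0.51, 0.96 ± 0.49 and -0.34 ± 0.56, edgeR adjusted p = 0.77, 0.21 and 0.68), and its sign at 5 weeks turned with scaling on total counts (0.58) or on endocrine genes (0.23). On total counts it was called higher at 3 weeks (1.58, edgeR adjusted p = 0.015). Of 5 delta cell markers, 3, 2 and 2 were higher and 1 lower at each time, and their summed level was 8119 to 18906 CPM at 1 week, 7681 to 15348 CPM at 3 weeks and 2652 to 3452 CPM at 5 weeks, against 2679 to 5285 CPM in the wild type. Sst made most of that sum, at 7886 to 18687 CPM at 1 week, so the sum says little of the other markers. Crhbp was called lower at 5 weeks on 0 and 2 counts, against 5, 12 and 6 counts in the wild type.

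Iapp (ENSMUSG00000041681, chromosome 6 from 142246943 to 142252481, plus strand) was the most abundant member and was not called in any comparison. It held 8002, 5809 and 8269.9 CPM at 1 week, 5847, 6501 and 6154 CPM at 3 weeks and 6176 and 3721 CPM at 5 weeks, against 3305, 5406 and 6898 CPM in the wild type. The groups overlapped at every time, and the wild-type libraries alone spanned the range from 3305 to 6898 CPM. The log2 fold change was 0.50 ± 0.27 at 1 week (95% interval -0.15 to 1.15), 0.25 ± 0.27 at 3 weeks (-0.40 to 0.89) and -0.07 ± 0.31 at 5 weeks (-0.80 to 0.65). These intervals use a t quantile on the 7 residual degrees of freedom alone and are wider than the edgeR test implies. The edgeR adjusted p was 0.26, 0.59 and 0.88, which does not show that the levels were alike.

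The value for Iapp rested on the scaling. Its share of all counts was 0.791, 0.451 and 0.679% in 1-week libraries, 0.708, 0.797 and 0.710% in 3-week libraries and 0.880 and 0.588% in 5-week libraries, against 0.215, 0.548 and 0.423% in the wild type. With total counts as the only scaling it was called higher at 3 weeks (0.90, edgeR adjusted p = 0.037) and at 5 weeks (0.89, edgeR adjusted p = 0.047). With endocrine scaling, the 5-week value was 0.53 (edgeR adjusted p = 0.18). The part of the acinar share in this was not tested. TMM scaling without acinar genes left all 15 results of the 5 members against the wild type unchanged. It moved the median log2 fold change of all genes by only 0.04, 0.02 and 0.03 at 1, 3 and 5 weeks, so it could not show that part.

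Amylin signals through the calcitonin receptor Calcr with RAMP proteins, and the list held 9 genes of the calcitonin family, of which 6 were tested. None was higher at any time, and 0, 1 and 3 were lower at 1, 3 and 5 weeks, with medians of -0.07, -0.24 and -0.82, while on total counts 1 was higher and 1 lower at 3 weeks and 2 were higher and 2 lower at 5 weeks. Calcr held 0.161 to 0.762 CPM in mutant and 0.181 to 0.560 CPM in wild-type libraries and was too low to test. At 5 weeks, Calcrl, the receptor for CGRP and adrenomedullin, held 3.32 and 2.198 CPM against 15.04, 13.5 and 15.01 CPM in the wild type (-2.40 ± 0.26, edgeR adjusted p = 1.7e-06). Its partner Ramp1 held 2.45 and 1.11 CPM against 8.78, 6.47 and 10.4 CPM (-2.27 ± 0.34, edgeR adjusted p = 8.5e-05). Ramp2 was also called lower at 5 weeks (-0.87 ± 0.31, edgeR adjusted p = 0.040), but not with endocrine scaling (-0.30) or on total counts, where it turned to 0.10. Adm2, which encodes intermedin, was called lower at 3 weeks (-2.02 ± 0.55, edgeR adjusted p = 0.018) and not at 1 week (-1.27 ± 0.54) or 5 weeks (1.25 ± 0.53, called higher on total counts and with endocrine scaling). Of 9 vessel and stroma markers, 1, 3 and 7 were lower at the same times, and their summed level at 5 weeks was 64.6 to 92.0 CPM against 216 to 326 CPM in the wild type. Their part in the falls of Calcrl and Ramp1 was not tested.

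Nucb2 (ENSMUSG00000030659, chromosome 7 from 123647888 to 123684098, plus strand) was lower at each time. It held 188, 288 and 232 CPM at 1 week, 181, 168 and 191 CPM at 3 weeks and 217 and 141 CPM at 5 weeks, against 409, 301 and 381 CPM in the wild type. The groups did not overlap, although the highest 1-week library lay close to the lowest wild-type library. The log2 fold change was -0.63 ± 0.18 at 1 week (edgeR adjusted p = 0.037), -1.02 ± 0.18 at 3 weeks (0.00096) and -1.02 ± 0.21 at 5 weeks (0.0013). These are levels 1.54, 2.02 and 2.03-fold lower. Between mutant times Nucb2 was not called (-0.39, -0.40 and -0.01 for 3 against 1, 5 against 1 and 5 against 3 weeks, edgeR adjusted p = 0.26, 0.21 and 0.99). Without 5-week replicate 2 the difference of 5 against 1 week was -0.74 and was called (edgeR adjusted p = 0.039).

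The fall of Nucb2 held less firmly than that of Ucn3. With total counts as the only scaling no time was called (-0.43, -0.32 and -0.01, edgeR adjusted p = 0.35, 0.36 and 0.97), and with endocrine scaling the 5-week value was -0.48 (edgeR adjusted p = 0.095). As a share of all counts, Nucb2 took 0.0186 to 0.0223% at 1 week, 0.0205 to 0.0220% at 3 weeks and 0.0223 to 0.0309% at 5 weeks, against 0.0234 to 0.0306% in the wild type. The 1-week call was lost on leaving out any of 7 libraries from the edgeR fit, with an adjusted p of 0.17 without replicate 1 and 0.13 without replicate 3 of 1 week. It was 0.054, 0.0505 and 0.056 without replicates 1, 2 and 3 of 3 weeks, and 0.19 and 0.11 without replicates 1 and 3 of the wild type. Per 1000 Iapp counts, 1-week libraries held 23.5, 49.5 and 28.03 Nucb2 counts, 3-week libraries 30.9, 25.8 and 31.0 and 5-week libraries 35.1 and 37.9, against 123.8, 55.8 and 55.2 in wild-type libraries. That ratio was lower than in any wild-type library in all 8 mutant libraries. Nucb1, the paralog of Nucb2 and a calcium-binding protein of the Golgi, was not called at any time (-0.02 ± 0.16, -0.44 ± 0.16 and -0.32 ± 0.18, edgeR adjusted p = 0.94, 0.072 and 0.19).

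Vgf (ENSMUSG00000037428, chromosome 5 from 137506165 to 137509221, plus strand) rose at each time. It held 18.0, 29.1 and 24.0 CPM at 1 week, 24.3, 28.5 and 26.2 CPM at 3 weeks and 61.4 and 85.9 CPM at 5 weeks, against 7.10, 8.53 and 16.5 CPM in the wild type. In CPM, every mutant library lay above every wild-type library, with wild-type replicate 3 close below 1-week replicate 1. Per 1000 Iapp counts, 1-week libraries held 2.25, 5.01 and 2.90 Vgf counts against 2.15, 1.58 and 2.39 in the wild type, and so overlapped it. The log2 fold change was 1.15 ± 0.25 at 1 week (edgeR adjusted p = 0.0076), a 2.22-fold higher level, and 1.30 ± 0.25 at 3 weeks (0.0014), 2.47-fold higher. At 5 weeks it was 2.79 ± 0.27 (5.1e-07), 6.90-fold higher. These calls held under every alternative run. Vgf was higher at 5 weeks than at 1 week (1.64 ± 0.25, edgeR adjusted p = 0.00018) and than at 3 weeks (1.48 ± 0.25, edgeR adjusted p = 0.00064), while 3 weeks and 1 week were not told apart (0.15 ± 0.23, edgeR adjusted p = 0.79).

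The receptors named for the VGF peptide TLQP-21 in rodents are C3ar1, also the receptor of complement C3a, and C1qbp, a protein known mainly from mitochondria. C1qbp held 38.2 and 45.2 CPM at 5 weeks against 21.5, 17.1 and 23.1 CPM in the wild type, a rise of 1.02 ± 0.18 (edgeR adjusted p = 0.00043), and was not called at 1 or 3 weeks (0.18 ± 0.17 and -0.29 ± 0.17). C3ar1 was not called against the wild type. Of the 6 granins and granin-like genes, proteins that fill the same granules as VGF, 2 were higher at 1 week, 1 was higher at 3 weeks and 2 were lower at 5 weeks, with medians of 0.28, 0.01 and -0.29. These directions turned at 5 weeks with the scaling, with 3 higher and 0 lower on total counts and 1 higher and 0 lower with endocrine scaling. Chga, encoding chromogranin A, had a log2 fold change of -1.07 ± 0.24 at 5 weeks (edgeR adjusted p = 0.0026) and Scg2, encoding secretogranin II, of -0.98 ± 0.26 (edgeR adjusted p = 0.0074). Both calls ended on total counts (-0.09 and -0.02) and with endocrine scaling (-0.48 and -0.41). Endocrine scaling rests on both genes, which hold much of its sum, so it takes up part of their own fall and cannot check it. In the wild type Chga held 2099 to 2790 CPM and Scg2 2602 to 3414 CPM, beside 7376 to 9227 CPM for the 12 genes together. Of 7 enzymes and helpers that process prohormones, 2 were higher at 1 week, Scg5 and Pcsk1n, which the granin list also holds and which are the same 2 genes counted there. In this list 1 was higher and 1 lower at 3 weeks and 2 were lower at 5 weeks, with medians of 0.41, -0.14 and -0.27. The lower ones at 5 weeks were Pcsk1, the prohormone convertase PC1/3 (-0.95 ± 0.19, edgeR adjusted p = 0.0013), and Qpct, a glutaminyl cyclase (-2.66 ± 0.66, edgeR adjusted p = 0.0056), and both calls ended on total counts, where 5 of the list were higher and 0 lower. Qpct rests on 10 and 9 counts at 5 weeks, against 24, 18 and 31 in the wild type.

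Npy (ENSMUSG00000029819, chromosome 6 from 49772709 to 49779506, plus strand) differed among mutant times. It held 8.83, 15.6 and 12.0 CPM at 1 week, 3.13, 1.70 and 2.82 CPM at 3 weeks and 6.05 and 4.69 CPM at 5 weeks, against 4.86, 2.84 and 6.87 CPM in the wild type, on 40 to 243 counts per library. In CPM, all 1-week libraries lay above all others, and both later groups overlapped the wild type. Per 1000 Iapp counts, 1-week libraries held 1.103, 2.69 and 1.45 Npy counts. These ratios overlapped those of wild-type libraries, at 1.47, 0.526 and 0.996, and of 5-week libraries, at 0.980 and 1.26. Npy was 2.52-fold higher at 1 week than in the wild type (1.33 ± 0.32, edgeR adjusted p = 0.013). It lost this call when wild-type replicate 1 (edgeR adjusted p = 0.054) or 2 (0.064) was left out. It was not called at 3 weeks (-0.92 ± 0.33, edgeR adjusted p = 0.065) or at 5 weeks (0.15 ± 0.35, edgeR adjusted p = 0.78). The 3-week value was called without wild-type replicate 2 (-1.20, edgeR adjusted p = 0.024), with endocrine scaling (-1.19, edgeR adjusted p = 0.014), by DESeq2 (-0.91, adjusted p = 0.038) and without the filter on low counts (-0.81, edgeR adjusted p = 0.044). The 5-week value was 1.22 on total counts (edgeR adjusted p = 0.0027).

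Between mutant times, Npy was 4.76-fold lower at 3 weeks than at 1 week (-2.25 ± 0.32, edgeR adjusted p = 0.00082), with no overlap and in every alternative run. It was lower at 5 weeks than at 1 week (-1.18 ± 0.35, edgeR adjusted p = 0.025). This call was lost without 1-week replicate 2 (edgeR adjusted p = 0.094) and without 5-week replicate 2 (0.056) or 3 (0.16), on total counts (0.44) and with endocrine scaling (0.36). It was higher at 5 weeks than at 3 weeks by 1.07 ± 0.34 with an adjusted p of 0.0497 in edgeR, just under the threshold. Leaving out 1-week replicate 3 gave 0.060, 3-week replicates 1, 2 and 3 gave 0.067, 0.16 and 0.097, 5-week replicates 2 and 3 gave 0.24 and 0.067, and wild-type replicate 1 gave 0.066. With only the compared groups in the edgeR fit it was 0.054.

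Npy belongs to a family with Pyy (peptide YY) and Ppy (pancreatic polypeptide), hormones of PP and alpha cells, and acts on receptors such as Npy1r. Of the 7 other genes of this list, 5 were tested, and 2 were higher at 1 week, while 1 was higher and 1 lower at 3 and at 5 weeks. Their medians were 0.03, -0.16 and -0.18, and on total counts 3 were higher and 0 lower at 5 weeks. Pyy held 2850, 2844 and 4942 CPM at 1 week, 985, 1860.0 and 915 CPM at 3 weeks and 2716 and 1520.4 CPM at 5 weeks, against 873, 989.8 and 1496 CPM in the wild type. Pyy was higher at 1 week (1.66 ± 0.31, edgeR adjusted p = 0.0029) and lower at 3 weeks than at 1 week (-1.50 ± 0.31, edgeR adjusted p = 0.0098), while its call at 5 weeks (0.92 ± 0.34, edgeR adjusted p = 0.047) was not made by DESeq2 (adjusted p = 0.13). Ppy held 1063, 1025 and 1491 CPM at 1 week, 504, 505 and 486 CPM at 3 weeks and 492 and 177 CPM at 5 weeks, against 164, 190.5 and 403 CPM in the wild type. Ppy was likewise higher at 1 week (2.24 ± 0.33, edgeR adjusted p = 0.00047) and lower at 3 weeks than at 1 week (-1.26 ± 0.32, edgeR adjusted p = 0.034), the second call being lost on total counts and by DESeq2 (adjusted p = 0.068 and 0.073). Its call at 3 weeks against the wild type (0.98 ± 0.32, edgeR adjusted p = 0.043) was lost with endocrine scaling (0.75) and by DESeq2. The summed level of 7 alpha cell markers was 179065 to 205224 CPM at 1 week, 86182 to 108080.0 CPM at 3 weeks and 57826 to 88398 CPM at 5 weeks, against 30422 to 66689 CPM in the wild type, and its part in these values was not tested. Gcg made most of that sum, at 170288 to 193771 CPM at 1 week.

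Npy1r, the receptor through which NPY slows insulin release, held 1.36, 2.12 and 1.37 CPM at 1 week, 1.31, 1.78 and 1.41 CPM at 3 weeks and 1.66 and 0.938 CPM at 5 weeks, against 3.64, 3.41 and 3.89 CPM in the wild type. It was called lower at 3 weeks (-1.27 ± 0.37, edgeR adjusted p = 0.026) and 5 weeks (-1.49 ± 0.43, edgeR adjusted p = 0.014), not at 1 week (-1.17 ± 0.38, edgeR adjusted p = 0.060), and both calls ended on total counts (-0.60 and -0.51), the one at 5 weeks also with endocrine scaling (-0.93). Of 9 nerve and Schwann cell markers, 0 were higher and 1, 2 and 4 lower at 1, 3 and 5 weeks. Their summed level was 16.7 to 18.4 CPM at 1 week, 12.8 to 16.5 CPM at 3 weeks and 10.6 to 13.5 CPM at 5 weeks, against 31.0 to 61.7 CPM in the wild type, with none at 0 in a whole group. Th, the rate-limiting enzyme of catecholamine synthesis, made most of that difference, and it was the 1 marker called lower at 1 week. Without Th, singled out after its values were seen, the sum of the other 8 markers was 13.6 to 14.97 CPM at 1 week, 10.6 to 13.9 CPM at 3 weeks and 8.59 to 9.89 CPM at 5 weeks, against 15.6 to 19.5 CPM in the wild type. The part of nerve tissue in the values of Npy was not tested. Of 8 macrophage and neutrophil markers, 3 were higher and 0 lower at 1 week, 0 higher and 2 lower at 3 weeks, and 1 higher and 6 lower at 5 weeks. The list had a summed level of 83.5 to 303 CPM at 1 week, 59.1 to 66.1 CPM at 3 weeks and 34.2 to 36.2 CPM at 5 weeks, against 52.1 to 74.2 CPM in the wild type. Much of the 1-week sum was Lyz2, at 38.2, 238 and 107 CPM against 12.1, 16.5 and 20.3 CPM in the wild type. The part of these markers in the value of Npy was not tested.

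**Figure D3:**
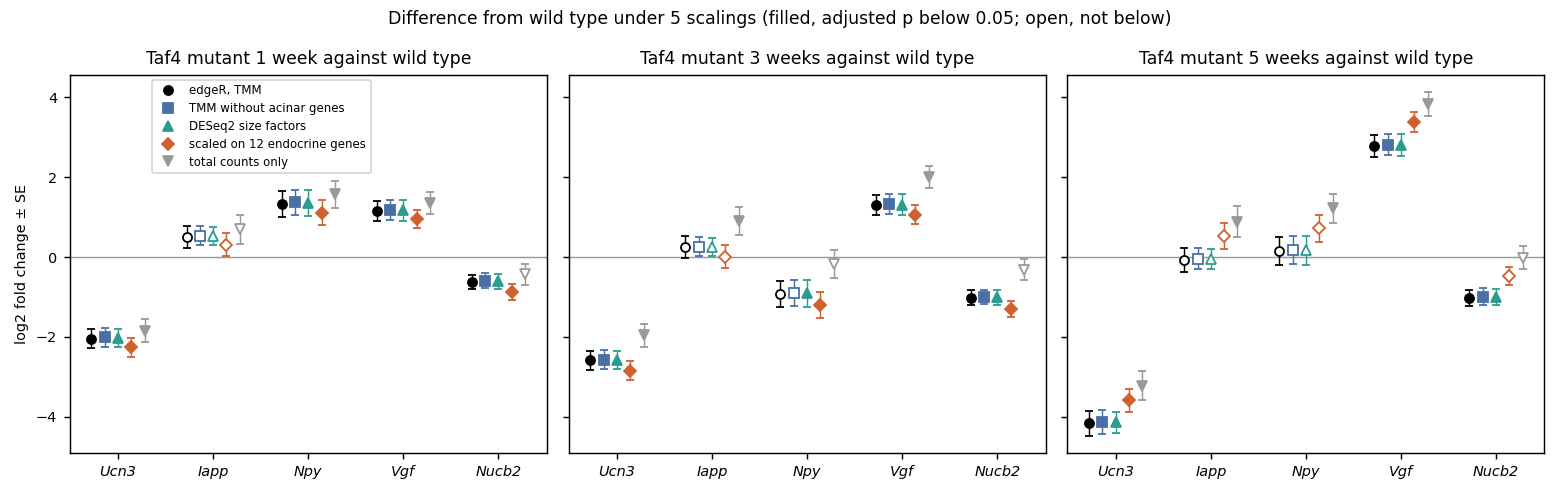
Log2 fold change (y axis, ± SE) of the 5 members in Taf4 mutant islets at 1, 3 and 5 weeks against the wild type (panels) under 5 scalings (markers; filled where the adjusted p was below 0.05). The markers for Ucn3 and Vgf stay on their side of 0 and filled throughout, while those for Iapp at 5 weeks lie on both sides of 0, from -0.07 to 0.89.

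Among 16 other neuropeptide and gut peptide genes, 12 were tested. None was higher at any time with TMM scaling (2, 1 and 4 on total counts) and 1, 3 and 5 were lower at 1, 3 and 5 weeks, with medians of 0.61, 0.13 and -1.10, the last being the same with a gene without counts set to its bound. Pdyn, encoding prodynorphin, held 18.5, 8.86 and 12.7 CPM at 1 week, 10.2, 8.51 and 7.73 CPM at 3 weeks and 6.21 and 5.98 CPM at 5 weeks, against 24.2, 60.3 and 117.8 CPM in the wild type. It was lower at each time (-2.33 ± 0.37, -2.93 ± 0.38 and -3.47 ± 0.46, edgeR adjusted p = 0.00094, 4.3e-05 and 2.2e-05) under all 4 other scalings. Gal, encoding galanin, held 5.99, 29.4 and 12.4 CPM at 1 week, 3.98, 2.68 and 3.34 CPM at 3 weeks and 0.198 and 0.234 CPM at 5 weeks, against 36.7, 12.7 and 55.2 CPM in the wild type. Gal was lower at 3 weeks (-3.38 ± 0.49, edgeR adjusted p = 0.00012) and 5 weeks (-7.27 ± 0.79, edgeR adjusted p = 2.0e-06).

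Of the remaining peptide genes, Grp (gastrin-releasing peptide) had no count at 5 weeks, against 27, 7 and 26 counts in the wild type, which is at least 33.2-fold lower with a floor of 3 counts over the group. Vip (vasoactive intestinal peptide) was lower at 5 weeks (-4.00 ± 0.81, edgeR adjusted p = 0.0012), at 0.871 and 0.176 CPM against 7.29, 2.06 and 14.7 CPM in the wild type. Penk, encoding proenkephalin, was lower at 3 weeks (-2.36 ± 0.77, edgeR adjusted p = 0.043) and 5 weeks (-3.44 ± 0.94, edgeR adjusted p = 0.010), the first call ending on total counts. These values rest on 3, 6 and 9 counts at 3 weeks and 0 and 8 at 5 weeks, against 17, 18 and 16 in the wild type. Galanin, VIP and gastrin-releasing peptide are known from islet nerves as well, whose markers are given above with and without Th. Gal, Vip and Grp were each lowest in wild-type replicate 2 and in 1-week replicate 1. These had the lowest acinar shares of their groups, 27.0 and 6.59%. Gal at 3 and 5 weeks and Grp at 3 weeks did not follow that order. The parts of nerve tissue and of the acinar share in these values were not tested.

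**Figure D4:**
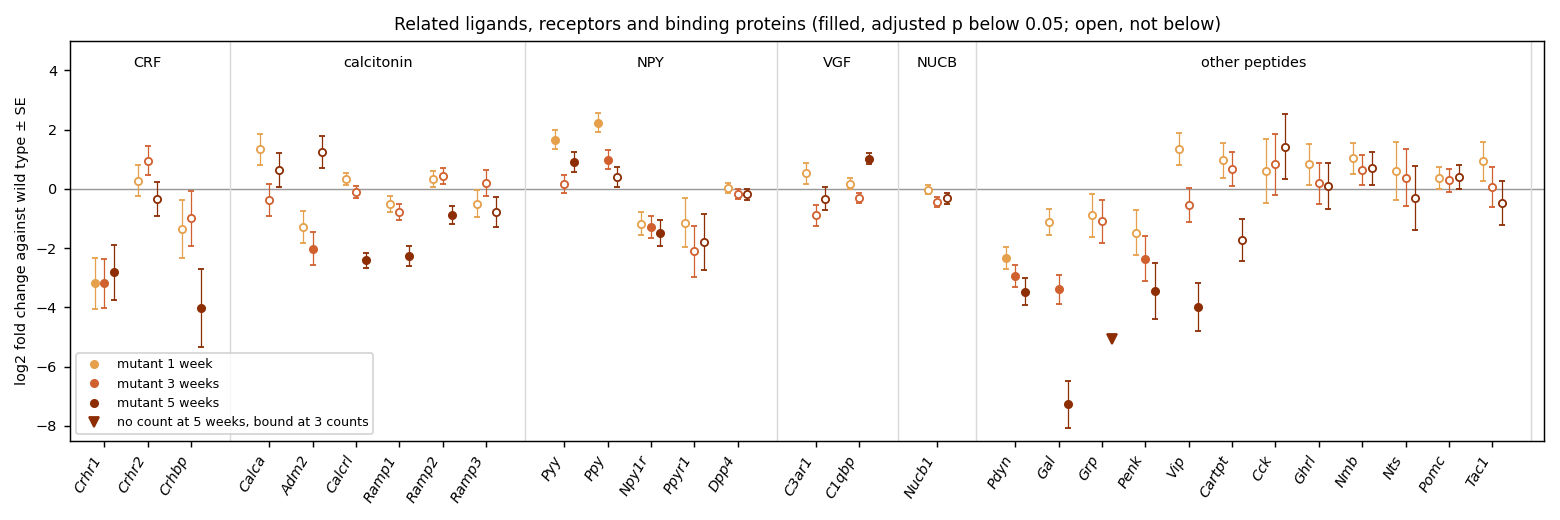
Log2 fold change against the wild type (y axis, ± SE) of tested genes related to the 5 members (x axis, by family) in Taf4 mutant islets at 1, 3 and 5 weeks (colours; filled where the adjusted p was below 0.05; the triangle is the bound for Grp, without counts at 5 weeks). Crhr1 and Pdyn are lower at all 3 times, Pyy and Ppy are highest at 1 week, and Gal stands at -7.27 at 5 weeks.

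Of 10 transcription factors of beta cells, 2 were lower at 1 week, 2 were lower at 3 weeks, and 1 was higher and 2 lower at 5 weeks, with medians of 0.11, -0.04 and -0.11. On total counts 1, 5 and 7 were higher and 0 lower, beside 1057, 7176 and 9963 of all genes called higher. With endocrine scaling 4 were higher and 1 lower at 5 weeks, beside 7821 of all genes called higher. Nkx6-1, a factor of beta cell identity, was lower at 1 week (-0.68 ± 0.16, edgeR adjusted p = 0.012) and 5 weeks (-1.09 ± 0.18, edgeR adjusted p = 0.00025). Mlxipl, encoding the glucose-sensing factor ChREBP, was lower at each time (-0.76 ± 0.18, -0.62 ± 0.18 and -1.41 ± 0.21, edgeR adjusted p = 0.014, 0.027 and 8.6e-05). None of these calls held on total counts, where Mlxipl turned to 0.03 at 3 weeks. Mafa, a factor of mature beta cells, was not called (0.73 ± 0.28, 0.58 ± 0.28 and -0.12 ± 0.31, edgeR adjusted p = 0.11, 0.18 and 0.80), nor was Pdx1 (0.04 ± 0.16, 0.31 ± 0.16 and -0.27 ± 0.18, edgeR adjusted p = 0.92, 0.22 and 0.29).

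Levels of the members can be set beside each other only per length, in the authors' normalised counts divided by the median transcript length in kilobases. On that scale Iapp held 178185 to 257683 at 1 week, 179848 to 199437 at 3 weeks and 113961 and 191930.0 at 5 weeks, against 99854 to 210159 in the wild type. Ucn3 held 908 to 2070.1 at 1 week, 959 to 1130.0 at 3 weeks and 260.0 to 428 at 5 weeks, against 5039 to 6786 in the wild type. Nucb2 held 1938 to 2976, 1733 to 1973 and 1458 to 2271 at 1, 3 and 5 weeks, against 3100 to 4168 in the wild type. Vgf held 122 to 198, 166 to 194 and 423 to 583 at the same times, against 47.6 to 111 in the wild type, and Npy 270.1 to 479, 52.3 to 96.5 and 144 to 188, against 86.8 to 209.6. In wild-type islets Ucn3 was thus above Nucb2, whereas at 3 and 5 weeks Nucb2 was above Ucn3 in every library. At 5 weeks Vgf in replicate 3 was also above Ucn3.

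Over the 11 libraries, log2 CPM of Ucn3 and Vgf had a Pearson r of -0.94, Ucn3 and Nucb2 of 0.79 and Vgf and Nucb2 of -0.72, while each pair with Iapp lay between -0.16 and 0.26. These values describe libraries that share group, depth and acinar share. Among 8231 genes of at least 10 CPM on average, the 3 with the pattern most like Ucn3 were Cox6a2 (r = 0.98), which encodes a respiratory chain subunit best known from heart and muscle, D630024D03Rik (0.97) and the protease gene Prss53 (0.97). Those most like Iapp were Scg5 (0.92), encoding the chaperone 7B2 of a prohormone convertase, and the general transcription factor gene Gtf2b (0.90). For Npy they were the nuclear receptor gene Rxra (0.92), Sytl5 (0.91) and the potassium channel gene Kcnk3 (0.91). Nolc1 (0.97), a nucleolar protein gene, Mapk14 (0.97), encoding a p38 kinase, and the SNARE gene Ykt6 (0.96) were most like Vgf. For Nucb2 they were the peroxisomal membrane protein gene Pxmp4 (0.97), Lcmt1 (0.95), encoding a methyltransferase of protein phosphatase 2A, and the scaffold gene Iqgap2 (0.95).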

How the data were processed

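Per the study's methods, the authors demultiplexed reads with bcl2fastq 2.17.1.14, trimmed them with cutadapt 1.10, removed rRNA reads with Bowtie2 2.2.8, aligned with STAR 2.5.3a to mm9 and deposited whole-number counts of uniquely aligned, unambiguous reads per gene from HTSeq (union mode; strand not stated). They also deposited a signal for each gene, the count divided by a DESeq2 size factor and by the median transcript length in kilobases, used here only to set members beside each other. RNA was amplified linearly before sequencing. The authors' 9 columns of fold changes and p-values, and their gene lists, were not used, and 5-week replicate 1 was not analysed here.

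Counts of 11 libraries in 4 groups were fitted together with edgeR 4.0.16 (R 4.3.3) after filterByExpr and TMM scaling, with quasi-likelihood tests and Benjamini-Hochberg adjustment over all 20180 genes. The fit was checked on simulated data with the same mean composition and spread in all libraries and genes changed in the 1-week group alone. That check could not show how scaling acts on libraries that differ in acinar share. Replicates are pools of islets of 2 mice. Alternatives were total counts, scaling on 12 endocrine genes, TMM without acinar genes, DESeq2 1.42.0, no filter, only the compared groups, a replicate block and each library left out. The members and gene lists were chosen with earlier results of these data known. Named genes were the members, the genes of their pathway lists and, for each member, the 3 genes of highest Pearson r of log2 CPM (prior count 2) among genes of at least 10 CPM on average, of which 1 is not reported here.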

Additional observations from a re-analysis of the deposited data

Results flagged for a closer look

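In 7 cases the level of a member differed between mutant times by the edgeR test of the difference itself (n = 3, 3 and 2 libraries at 1, 3 and 5 weeks). Ucn3 was lower at 5 weeks than at 1 week (log2 -2.11, adjusted p = 3.6e-05) and than at 3 weeks (-1.57, adjusted p = 0.00077). Vgf was higher at 5 weeks than at 1 week (1.64, adjusted p = 0.00018) and than at 3 weeks (1.48, adjusted p = 0.00064). For both genes, both 5-week libraries lay beyond all 1-week and 3-week libraries.

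Npy took another course, lower at 3 weeks than at 1 week (-2.25, adjusted p = 0.00082) and at 5 weeks than at 1 week (-1.18, adjusted p = 0.025) but higher at 5 weeks than at 3 weeks (1.07, adjusted p = 0.0497). In CPM, the groups did not overlap in any of these 3 comparisons, and only the first held in every alternative run. Per 1000 Iapp counts, the 1-week and 5-week libraries overlapped. The libraries of each time also differed in acinar share and in alpha cell and macrophage markers, as given above, whose part was not tested.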

How the results depend on the processing

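The calls of Ucn3 and Vgf against the wild type, and at 5 weeks against both earlier times, held in all 7 other settings and with each of 11 libraries left out, as did that of Npy at 3 weeks against 1 week. Of the 15 results against the wild type, 9 were unchanged on total counts, 12 with endocrine scaling, 15 without acinar genes, 14 by DESeq2, 13 without the filter, 15 with only the compared groups and 14 with a replicate block. Between mutant times these numbers were 9, 10, 14, 14, 14, 14 and 14 of 15. The cause of the changes below was not tested.

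On total counts Nucb2 was no longer called against the wild type (-0.43, -0.32 and -0.015 at 1, 3 and 5 weeks), Iapp was called higher at 3 weeks (0.90) and turned to 0.89 at 5 weeks, and Npy was called at 5 weeks (1.22). Between times Iapp turned to 0.21 at 3 against 1 week and to 0.20 at 5 against 1 week, Nucb2 turned to 0.11, 0.41 and 0.31 at 3 against 1, 5 against 1 and 5 against 3 weeks, and Npy at 5 against 1 week lost its call (-0.35). With endocrine scaling Npy was called at 3 weeks (-1.19), Nucb2 lost its call at 5 weeks (-0.48), and Iapp turned to 0.53 at 5 weeks, 0.22 at 5 against 1 week and 0.51 at 5 against 3 weeks. Nucb2 turned to 0.39 at 5 against 1 week and to 0.83, past the threshold, at 5 against 3 weeks, and Npy at 5 against 1 week lost its call (-0.38). DESeq2 called Npy at 3 weeks (-0.91), as did the fit without the filter (-0.81), where Iapp at 5 weeks turned to 0.058. Nucb2 at 5 against 3 weeks, near 0 throughout, was 0.0097 without acinar genes, 0.0024 by DESeq2 and 0.0202 without the filter. With only the compared groups Npy at 5 against 3 weeks lost its call (1.05).

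With a replicate block, Nucb2 at 1 week (-0.64, edgeR adjusted p = 0.063) and Npy at 5 against 3 weeks (1.07, edgeR adjusted p = 0.11) lost their calls. In the labels the samples share only a number. Of 15 same-numbered pairs, with correlations of -0.11 to 0.19, 1 was above 0.1, and 4 of 11 libraries correlated best with their own number. These correlations use deviations from the means of groups of 2 or 3 libraries, which ties the values within a group. They therefore cannot exclude a link between libraries of the same number.

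With single libraries left out, the log2 fold change against the wild type ranged from 1.07 to 1.70 for Npy and from -0.77 to -0.45 for Nucb2 at 1 week, from -1.20 to -0.56 for Npy at 3 weeks, and from -0.47 to 0.26 for Iapp and -0.12 to 0.51 for Npy at 5 weeks. Iapp at 5 weeks turned without 5-week replicate 3 or wild-type replicate 3, and Npy at 5 weeks without 5-week replicate 2 or wild-type replicate 2. At 3 against 1 week the range was -0.80 to -0.22 for Ucn3 and -0.032 to 0.32 for Vgf, and at 5 against 1 week -1.38 to -0.96 for Npy and -0.74 to -0.12 for Nucb2. At 5 against 3 weeks it was -0.72 to 0.0030 for Iapp (highest without 5-week replicate 3), 0.84 to 1.25 for Npy and -0.34 to 0.27 for Nucb2.

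The number of genes called was 1969, 3229 and 5863 at 1, 3 and 5 weeks and 770, 3316 and 2376 at 3 against 1, 5 against 1 and 5 against 3 weeks. It was 7690 and 10857 at 3 and 5 weeks and 2361 and 9183 at 3 and 5 weeks against 1 week on total counts. With endocrine scaling it was 9291 at 5 weeks and 10253 and 10579 at 5 against 1 and 3 weeks. With only the compared groups it was 5021 at 3 weeks and 1809 at 5 against 1 week, and at 3 against 1 week it was 1268 by DESeq2, 1305 without the filter and 452 with the replicate block. With libraries left out it ranged from 767 (without wild-type replicate 1) to 2522 at 1 week, 1862 (without wild-type replicate 1) to 3830.0 at 3 weeks, 205 (without 3-week replicate 3) to 1096 at 3 against 1 week and 1372 (without 3-week replicate 1) to 2631 at 5 against 3 weeks. Of the genes called at 1, 3 and 5 weeks, 54.7, 51.5 and 51.6% were higher, against 71.7, 93.3 and 91.8% on total counts and 18.8, 13.0 and 84.2% with endocrine scaling. Between times, in the order above, 24.7, 46.7 and 51.5% were higher, against 89.2, 92.8 and 78.2% on total counts and 14.8, 92.9 and 96.0% with endocrine scaling.

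Precision at 5 weeks rests on 2 libraries, and Crhr1 rests on 1 to 24 counts per mutant library. Mutant and wild-type libraries also differ in sex and acinar share, and the wild type is not matched in time.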
